A study of Mus musculus with 25 samples.

Results

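The comparison described here set the highest concentration of hypochlorous acid (HOCl), 3.5 mM, against the lowest one given, 0.14 mM, in cultures of RAW 264.7, an established mouse macrophage line. It used 6 of the 25 arrays of the series, 3 at 3.5 mM and 3 at 0.14 mM, which were chosen by their dose labels. All 45037 probe sets of the Affymetrix Mouse Genome 430 2.0 array that are not controls were compared. Both groups were exposed for 6 h, and 4 arrays at 0 mM, exposed to no HOCl for the same time, are given beside them. The remaining arrays of the series, at 0.35 to 2.8 mM, entered the estimate of the spread between replicates. The labels call the replicates biological. Values are log2 signals centred on the middle probe set of each array, which lies at 0, and differences between groups are log2 ratios. In such bulk samples, fewer cells of a type and less RNA per cell cannot be told apart.

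HOCl is the oxidant that neutrophils release with the enzyme myeloperoxidase at sites of infection. It reacts first with thiols such as those of cysteine and glutathione, and with amines to give longer-lived chloramines. Cells answer oxidants through several transcription programmes. NRF2 raises glutathione and thioredoxin enzymes, heat shock factors raise chaperones, ATF4 raises amino acid supply and tRNA charging, and NF-kB drives inflammatory genes in macrophages. Replication-dependent histone genes are expressed mainly in S phase and their mRNAs normally end in a stem-loop without a poly(A) tail.

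Replicate 1 of the high dose stood apart from the other two. Across probe sets with a mean log2 signal above 1 it correlated with replicates 2 and 3 at r of 0.951 and 0.938. On the same probe sets replicates 2 and 3 correlated at 0.982 and the 0.14 mM arrays at 0.992 to 0.997. Replicate 1 differed more than 2-fold from the mean of replicates 2 and 3 at 1119 of all probe sets (2.48%). Its correlation with replicate 1 of 2.8 mM, 0.959, was higher than with either replicate of its own dose. Counts of list members without it are given below for some lists, and not for all of those whose counts moved. The poly-A control transcripts added to the RNA also moved with dose. Their 5' ends averaged 2.07 ± 0.222 at 3.5 mM and 0.699 ± 0.0734 at 0.14 mM (SD, n = 3 each), and this difference had a two-sided exact permutation p of 0.1, the smallest that 3 against 3 arrays allow. All 3.5 mM arrays lay at the high level and all 0.14 mM arrays at the low one, so within these 6 arrays spike level and dose cannot be told apart. A fit over the 25 arrays with the spike level as a term kept 42 of the 117 calls made for named genes. Within a dose the level differed only at 0.35 and 0.7 mM, where replicate 3 alone was high. The term thus rests on the arrays of those doses. Replicate 3 of 0.7 mM also had a mean of 4.01 for NF-kB inflammatory genes, against 1.61 and 1.80 on replicates 1 and 2. That fit cannot tell spike level from such differences, and the part of spike level in the results was not tested further. The 3' to 5' difference of the Actb control probe sets was 0.464 ± 0.205 at 3.5 mM and 0.426 ± 0.0204 at 0.14 mM (SD, n = 3 each, exact permutation p = 0.8). Of 35 marker genes of other cell types 2 rose and 0 fell (5 and 0 at an unadjusted p under 0.05, against 17.9% and 9.28% of all genes), and their mean per array was -0.04 to 0.08 at 3.5 mM, against -0.13 to -0.09 at 0.14 mM and -0.20 to -0.04 at 0 mM.

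With all arrays more probe sets rose than fell at 3.5 mM, while falls of at least 2-fold outnumbered such rises. At a Benjamini-Hochberg adjusted p under 0.05 in the limma fit, 4924 of 45037 probe sets differed (10.9%), 2717 of them higher (6.03%) and 2207 lower (4.9%). With a change of at least 2-fold the balance turned, with 369 probe sets higher (0.819%) and 947 lower (2.1%). Counted as genes, with the brightest single-symbol probe set standing for each, 2221 of 18193 differed (12.2%), of which 1348 rose (7.41%) and 873 fell (4.8%), while at least 2-fold 151 rose (0.83%) and 392 fell (2.15%). Without replicate 1 of 3.5 mM 1099 genes rose (6.04%) and 908 fell (4.99%), and at least 2-fold 213 rose (1.17%) and 498 fell (2.74%). The majority of rises did not hold in other settings. Of the probe sets called, 2771 were higher and 2973 lower in a fit of the 2 doses alone, 1471 and 1894 with the replicate block over those arrays, 2079 and 2164 without dim probe sets, and 313 and 1421 with spike level as a term. They numbered 1207 and 1854 without replicate 1 of 0.14 mM, and 1439 and 1521 without replicate 3 of 3.5 mM. Counted as genes, 621 to 1099 of 18193 rose and 514 to 908 fell when 1 array was left out. With spike level as a term 167 genes rose and 454 fell. The median log2 difference over all genes was 0.071. A stricter description asks that all 3.5 mM arrays lie beyond every 0 and 0.14 mM array. Among the called genes this held for 818 rises (4.5% of all genes) and 659 falls (3.62%). Against the 0.14 mM arrays alone, 1331 of the rises (7.32% of all genes) and 862 of the falls (4.74%) had groups that did not overlap, and 308 rises (1.69%) and 245 falls (1.35%) lay beyond all 22 other arrays.

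**Figure D1:**
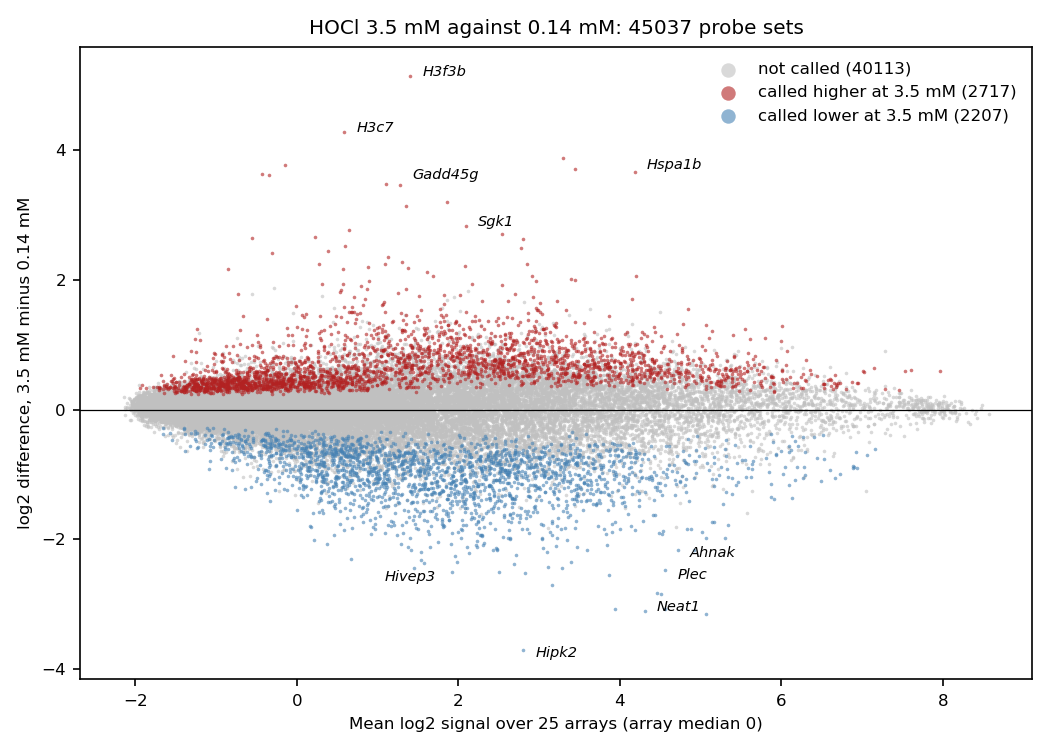
Log2 difference of 3.5 mM over 0.14 mM (vertical) against the mean log2 signal over all 25 arrays (horizontal) for the 45037 probe sets, with called ones coloured by direction. The 2717 rises and 2207 falls are spread over most of the signal range, with H3f3b at the top (5.14) and Hipk2 at the bottom (-3.71).

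The largest rises belonged to histone probe sets. H3f3b encodes a replication-independent histone H3 variant, and its probe set 1430357_at stood at 5.56, 5.55 and 5.24 on the 3.5 mM arrays, against 0.13, 0.54 and 0.25 at 0.14 mM and 0.59 to 1.10 at 0 mM. H3c7, a replication-dependent H3 gene, stood at 3.77, 4.34 and 4.73, against -0.31, 0.15 and 0.13 at 0.14 mM. For both genes the groups were far apart and every 3.5 mM array lay above all 22 other arrays of the series. H3f3b was 35.4-fold higher (log2 5.14, SE 0.406, adjusted p = 1.71e-07) and H3c7 was 19.5-fold higher (log2 4.28, SE 0.263, adjusted p = 1.16e-08). H3c4 rose 5.46-fold, with 2.44, 2.66 and 2.75 at 3.5 mM against 0.07, 0.49 and -0.06 at 0.14 mM. H2bc18, which encodes a core histone of the H2 class, rose 4.75-fold, with 2.61, 2.87 and 2.74 at 3.5 mM against 0.29, 0.57 and 0.62 at 0.14 mM. H3c11 rose 2.06-fold, and the linker histone gene H1f4 rose 1.99-fold. These rises were also past the threshold without replicate 1 of 3.5 mM and in the fit with spike level as a term.

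The promoters printed are those of H3f3b and of the replication-dependent gene with the largest called rise and an entry in each of the H3, H2 and H1 classes, followed by Gadd45g and Hspa1b, large rises with other roles. Each is given 5' to 3' on the strand of its gene, from 220 bases before the transcription start to 20 bases from it, after RefSeq on mouse build GRCm38.p6. Capitals mark 4 motifs searched on both strands. The first is TATAAA, the core of the TATA box, and the second is the CCAAT box. Either shows as its reverse complement where it lies on the other strand. The others are GAANNTTC, the core of a heat shock element, and TGACGTCA, the palindromic cyclic AMP response element.
H3f3b, chr11:116024485-116024724, minus strand: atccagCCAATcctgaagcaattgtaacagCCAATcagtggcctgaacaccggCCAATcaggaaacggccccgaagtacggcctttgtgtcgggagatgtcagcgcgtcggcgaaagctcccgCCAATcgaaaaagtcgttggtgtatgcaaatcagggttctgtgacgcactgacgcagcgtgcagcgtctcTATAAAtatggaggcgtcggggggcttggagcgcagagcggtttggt
H3c4, chr13:23575543-23575782, plus strand: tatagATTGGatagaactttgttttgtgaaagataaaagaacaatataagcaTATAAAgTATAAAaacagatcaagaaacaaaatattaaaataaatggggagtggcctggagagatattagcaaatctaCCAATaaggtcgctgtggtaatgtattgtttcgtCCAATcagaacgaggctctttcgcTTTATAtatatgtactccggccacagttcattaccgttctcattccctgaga
H2bc18, chr3:96269480-96269719, plus strand: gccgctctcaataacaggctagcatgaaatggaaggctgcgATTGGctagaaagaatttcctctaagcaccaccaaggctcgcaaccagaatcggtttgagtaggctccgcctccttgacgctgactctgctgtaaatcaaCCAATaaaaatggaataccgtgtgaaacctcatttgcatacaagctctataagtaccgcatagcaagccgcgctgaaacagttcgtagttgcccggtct
H1f4, chr13:23622539-23622778, minus strand: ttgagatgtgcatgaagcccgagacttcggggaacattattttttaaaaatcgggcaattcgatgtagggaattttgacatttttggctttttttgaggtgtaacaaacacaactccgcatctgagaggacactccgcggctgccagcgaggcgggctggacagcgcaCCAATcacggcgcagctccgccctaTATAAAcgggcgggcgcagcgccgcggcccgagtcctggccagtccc
Gadd45g, chr13:51846455-51846694, plus strand: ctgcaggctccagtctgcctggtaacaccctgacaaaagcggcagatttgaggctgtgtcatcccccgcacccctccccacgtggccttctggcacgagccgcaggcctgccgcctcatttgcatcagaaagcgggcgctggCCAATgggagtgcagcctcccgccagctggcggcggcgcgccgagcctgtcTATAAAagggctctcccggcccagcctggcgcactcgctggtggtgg
Hspa1b, chr17:34959219-34959458, minus strand: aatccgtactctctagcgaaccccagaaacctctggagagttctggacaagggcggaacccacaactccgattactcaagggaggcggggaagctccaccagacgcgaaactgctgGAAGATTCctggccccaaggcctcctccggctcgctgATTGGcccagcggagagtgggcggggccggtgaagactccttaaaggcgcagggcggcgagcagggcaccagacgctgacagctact

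H3f3b, H1f4 and Gadd45g each had TATAAA on the sense strand with its first base 27 bases before the start. In H3c4 it lay on the sense strand farther off, 168 and 161 bases before the start, and on the other strand 32 bases before it. CCAAT was present in all 6 windows, with 4 matches in that of H3f3b, and GAANNTTC was present in that of Hspa1b, 104 bases before the start. Over windows of 250 bases before to 50 bases after the start, CCAAT on either strand was found in 62 of 104 promoters of genes that rose at least 2-fold (59.6%) and in 73 of 241 promoters of genes that fell at least 2-fold (30.3%), against 4556 of all 11791 measured genes with 1 promoter entry (38.6%). TGACGTCA was in 7.69% of the promoters of the rising genes, 2.9% of those of the falling genes and 2.7% of all. TATAAA was in 11.5%, 7.88% and 10.2% of them in the same order, and GAANNTTC in 5.77%, 4.98% and 6.5%. TATAAA on the sense strand with its first base 40 to 20 bases before the start was in 1.92%, 0.83% and 2.83%. The windows printed are thus no sample of the rising genes in this respect. Base composition differed too. The median share of G and C was 59% in the rising, 65.3% in the falling and 58.7% in all promoters, and the part of composition in the motif shares was not tested.

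Histone rises were uneven between probe sets. In the list of replication-dependent histones 7 of 10 measured genes rose (70%, against 7.41% of all genes) and 0 fell, with a median log2 difference of 0.89 against 0.071 over all genes. Of the 7, H2bc22 and H1f6 rose 1.73-fold and 1.29-fold and lost the call without replicate 1 of 3.5 mM. The fit with spike level as a term left 5 calls, against 167 rises over all 18193 genes. The mean of the list was 1.82, 1.93 and 1.91 on the 3.5 mM arrays, against 0.53, 0.70 and 0.65 at 0.14 mM and 0.29 to 0.80 at 0 mM. Over all 29 probe sets of replication-dependent histones, 15 of which match several symbols, 14 were higher (48.3%) and 0 lower. By class the rises were 5 of 8 probe sets of H3, 4 of 5 of H4, 3 of 11 of H2 and 2 of 5 of H1.

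Probe sets shared by several histone genes showed the same unevenness. Probe set 1460314_s_at, which matches 12 H3 genes, had 4.32, 5.07 and 4.95 at 3.5 mM against 1.59, 1.52 and 1.65 at 0.14 mM (log2 difference 3.20, adjusted p = 1.71e-07). Probe set 1431658_at, which matches 13 H4 genes, had 0.82, 0.83 and 1.24 at 3.5 mM against -1.31, -1.19 and -1.10 at 0.14 mM (log2 difference 2.16, adjusted p = 1.91e-08). Other histone probe sets did not separate the doses. The groups overlapped for 1438009_at, which matches 10 H2 genes and stood at 7.97, 7.61 and 7.40 at 3.5 mM against 7.54, 7.60 and 7.60 at 0.14 mM (log2 difference 0.08, adjusted p = 0.938), and for H1f2 with 3.83, 3.84 and 3.72 against 3.63, 3.90 and 3.82 (adjusted p = 0.993). The H3f3 genes gave a further case. The 5 probe sets that match H3f3b together with H3f3a and related copies lay between 6.39 and 7.55 at 3.5 mM and between 6.17 and 7.21 at 0.14 mM, and 0 of them passed the threshold in the limma fit (adjusted p from 0.0669 to 0.67), while 2 had an unadjusted p under 0.05. Without replicate 1 of 3.5 mM 1 of the 5 passed, 1423263_at (adjusted p = 0.0428). With all arrays the log2 differences of these 5 ran from -0.09 to 0.36, so the 35.4-fold rise of H3f3b rests on 1 probe set. Probe sets that match several symbols cannot assign signal to 1 gene, and the stretch of transcript that each probe set reads was not analysed here.

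**Figure D2:**
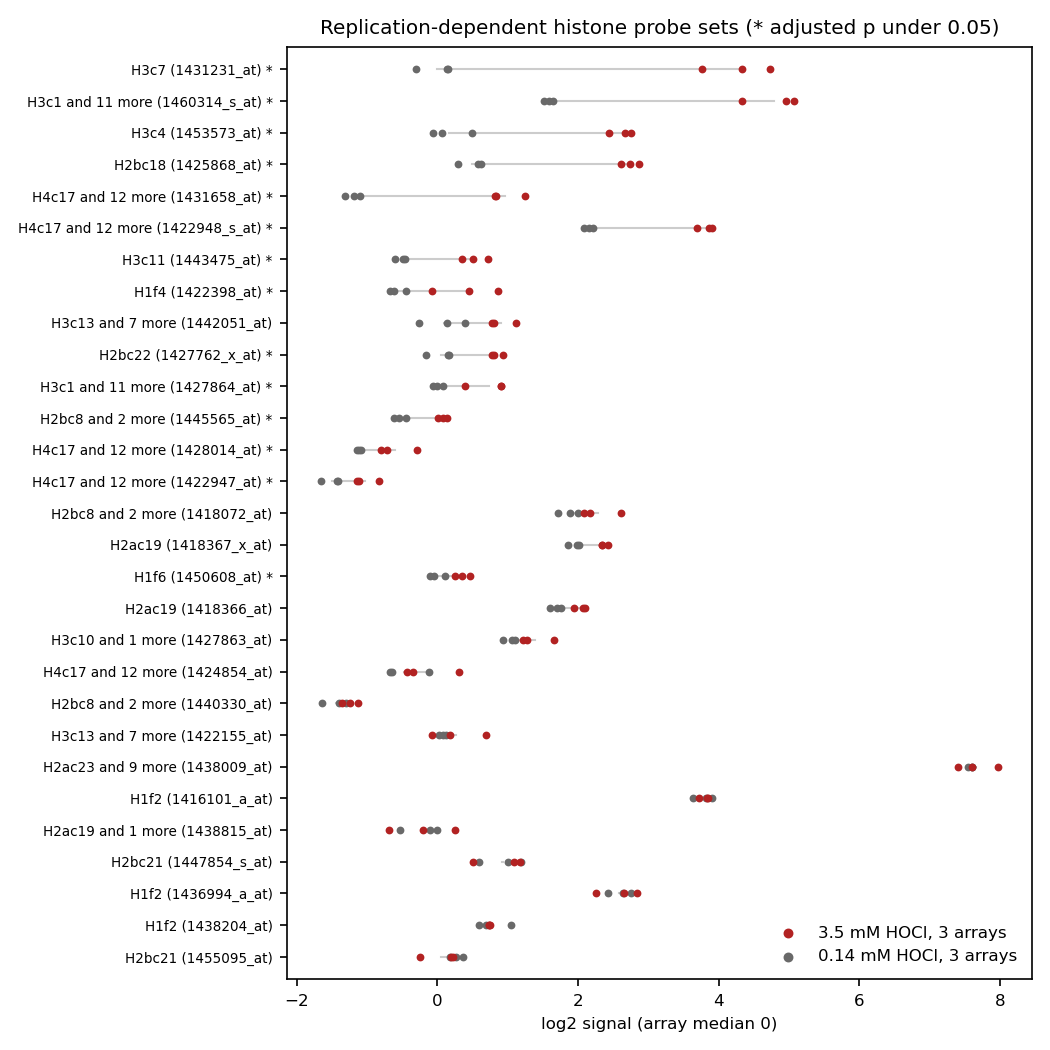
Log2 signal (horizontal) of the replication-dependent histone probe sets, 1 row each, on the 3 arrays at 3.5 mM and the 3 at 0.14 mM, with a line between the means and an asterisk for an adjusted p under 0.05. The doses are farthest apart for H3c7 (4.28), the shared H3 probe set 1460314_s_at (3.20), H3c4 (2.45) and H2bc18 (2.25), while rows such as 1438009_at and H1f2 overlap.

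Few regulators of histone expression were called, and in both directions. Npat, the S-phase coactivator of histone gene transcription, fell 2.25-fold, with 1.32, 0.58 and 0.69 at 3.5 mM against 1.71, 2.26 and 2.12 at 0.14 mM (adjusted p = 0.00742). Casp8ap2, also known as Flash and needed for histone pre-mRNA processing, fell 2.36-fold (adjusted p = 0.019) and lost the call when any 1 of 4 arrays was left out. Lsm11, a subunit of the U7 particle that cleaves histone pre-mRNA, had 2.94, 2.89 and 3.30 at 3.5 mM against 2.35, 2.55 and 2.55 at 0.14 mM, a 1.48-fold rise (adjusted p = 0.0209) that was lost without 1 or another of 2 arrays. Slbp, the protein that binds the histone stem-loop, had 4.94, 3.97 and 3.92 at 3.5 mM against 4.80, 4.97 and 4.91 at 0.14 mM, which missed the threshold with all arrays (log2 difference -0.62, adjusted p = 0.0539). Without replicate 1 of 3.5 mM Slbp passed it (log2 difference -0.94, adjusted p = 0.000912). Its probe set 1430058_at moved the other way, with 2.38, 1.80 and 1.57 at 3.5 mM against -0.12, 0.11 and 0.33 at 0.14 mM. That rise passed the threshold in the limma fit with all arrays (log2 difference 1.81, adjusted p = 0.000395). In the list of histone mRNA processing factors and histone chaperones 1 of 19 genes rose (5.26%, against 7.41% of all genes) and 2 fell (10.5%, against 4.8%). The mitosis and DNA replication lists had no more calls than the background shares. There were 1 rise and 1 fall among 29 mitosis genes and 0 rises and 1 fall among 31 DNA replication genes. The median log2 difference of the mitosis list was 0.37, against 0.071 over all genes. Its mean was 3.98, 4.14 and 4.20 at 3.5 mM, against 3.68, 3.87 and 3.88 at 0.14 mM and 3.63 to 4.26 at 0 mM. The spread in the test is pooled over doses such as 2.8 mM, where this mean was 3.75, 2.16 and 2.12.

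Among stress genes with single large rises was Hspa1b, an inducible HSP70 chaperone. It stood at 6.82, 6.81 and 6.65 at 3.5 mM, against 2.93, 3.28 and 3.11 at 0.14 mM and 1.73 to 3.83 at 0 mM. The rise was 12.6-fold (log2 3.65, SE 0.621, adjusted p = 0.000882), with all 3 of its probe sets called. The rest of the heat shock and chaperone list moved little. Of its 21 genes 2 rose (9.52%) and 0 fell, the other being Hsp90aa1, which rose 1.56-fold (adjusted p = 0.0464) and lost the call without replicate 1 of 3.5 mM (adjusted p = 0.211). Hspa1a, the paralogue of Hspa1b, stood at 0.46, -1.04 and -0.50 at 3.5 mM against -1.57, -1.66 and -1.38 at 0.14 mM and did not pass the test (adjusted p = 0.177). The sequences of Hspa1a and Hspa1b are nearly identical, so their probes may share signal.

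The growth arrest genes Gadd45g, Gadd45a and Gadd45b all rose. Gadd45g had 3.85, 4.39 and 4.80 at 3.5 mM against 1.15, 0.87 and 0.67 at 0.14 mM, an 11.0-fold rise (log2 3.45, SE 0.55, adjusted p = 0.000495). Gadd45a rose 4.52-fold (adjusted p = 0.00428) and Gadd45b 3.79-fold (adjusted p = 0.00157). Sgk1, a serum- and glucocorticoid-induced kinase, rose 7.07-fold, with 3.38, 3.24 and 3.26 at 3.5 mM against 0.05, 0.84 and 0.52 at 0.14 mM (adjusted p = 0.000746). Id2, a dominant-negative partner of basic helix-loop-helix factors, rose 4.0-fold, with 4.90, 5.23 and 5.09 at 3.5 mM against 2.86, 3.17 and 3.19 at 0.14 mM (adjusted p = 0.00461). Nanos1, an RNA-binding translational repressor, rose 5.08-fold (adjusted p = 3.06e-05), and Rgs2, which limits signalling by heterotrimeric G proteins, rose 4.03-fold (adjusted p = 0.00853). The unnamed transcripts 3110040M04Rik and 4921531C22Rik rose 13.6-fold and 4.5-fold. In the fit with spike level as a term Gadd45g, Nanos1 and the 2 unnamed transcripts were called, and Hspa1b, Gadd45a, Gadd45b, Sgk1, Id2 and Rgs2 were not.

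**Figure D3:**
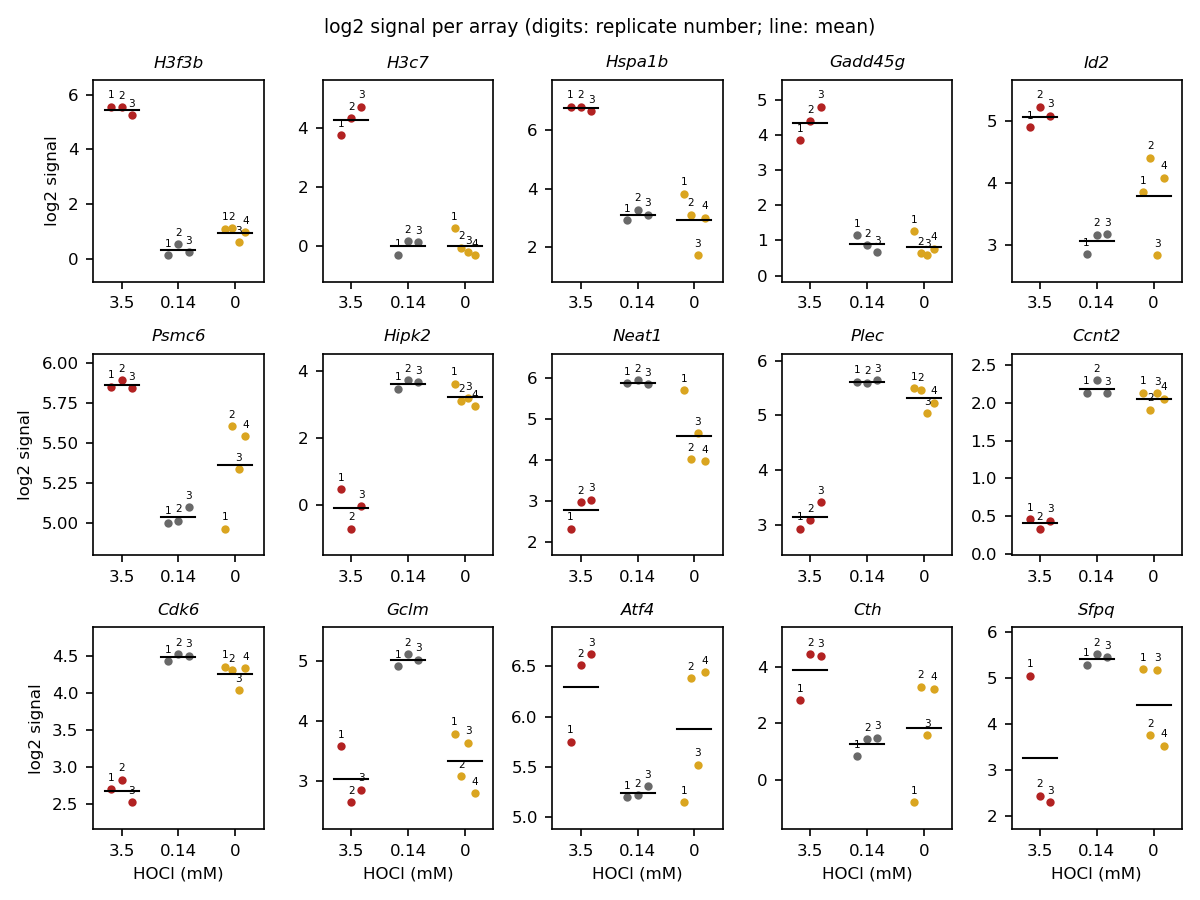
Log2 signal (vertical) of 15 genes on each 3.5 mM, 0.14 mM and 0 mM array (columns), with the replicate number beside each point and a line at the mean of each group. In every panel the 3 arrays at 3.5 mM and the 3 at 0.14 mM are apart, while replicate 1 of 3.5 mM lies between them or near 0.14 mM for Sfpq and is the lowest of its dose for Cth and Atf4.

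Genes of protein turnover and mitochondria rose by small amounts and in one direction. Of 39 proteasome genes 16 rose (41%) and 0 fell, with a median log2 difference of 0.43. Psmc6, an ATPase of the proteasome cap, had 5.85, 5.89 and 5.84 at 3.5 mM against 5.00, 5.01 and 5.10 at 0.14 mM, a 1.77-fold rise (adjusted p = 0.00122), and its 0 mM arrays spread from 4.96 to 5.61. The rises included the immunoproteasome subunits Psmb8 and Psmb9, at log2 differences of 0.74 and 1.00, and the constitutive core subunits Psma2, Psma4 and Psma7. Mitochondrial ribosomal proteins rose for 25 of 76 genes (32.9%), with 0 falls and a median of 0.47. Mrpl58, a ribosome rescue factor, rose 2.01-fold, with 4.51, 4.61 and 4.48 at 3.5 mM against 3.40, 3.60 and 3.59 at 0.14 mM (adjusted p = 7.2e-05). Oxidative phosphorylation genes rose for 17 of 79 (21.5%), with 0 falls and a median of 0.30, led by the complex I subunit Ndufs4 (1.79-fold, adjusted p = 0.000181). Cytosolic ribosomal proteins rose for only 1 of 46 genes, at a median of 0.07, near that of all genes. Leaving out 1 array at a time gave 10 to 14 rises for the proteasome and 13 to 22 for mitochondrial ribosomal proteins. For oxidative phosphorylation it gave 6 to 15, with each list lowest without replicate 1 of 0.14 mM and 0 falls throughout. Rises over all 18193 genes numbered 621 to 1099, also lowest without that array. Without replicate 1 of 3.5 mM the lists had 11, 16 and 11 rises, against 1099 over all genes. With spike level as a term the rises were 1, 5 and 3, against 167 over all genes, and oxidative phosphorylation had 1 fall. At an unadjusted p under 0.05 with all arrays, falls numbered 0, 0 and 1 in these lists. The fit with spike level as a term called Mrpl58 and Ndufs4 and not Psmc6. Replicate 1 of 3.5 mM had the highest mean of the 3 for both mitochondrial ribosomal proteins (4.66, against 4.30 and 4.29 on replicates 2 and 3) and the proteasome (5.43, against 5.14 and 5.11).

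Aminoacyl-tRNA synthetases, which charge tRNAs with amino acids, rose for 12 of 35 genes (34.3%), with 0 falls and a median log2 difference of 0.39. Leaving out 1 array gave 8 rises (without replicate 3 of 3.5 mM, 736 over all genes) to 16 (without replicate 1 of 3.5 mM, 1099 over all genes). With spike level as a term 0 rose, against 167 of all 18193 genes. The largest of the 12 rises was that of Cars, the cysteinyl-tRNA synthetase (1.67), followed by Mars1 (1.32) and Aars (1.13). The ATF4 list, which overlaps them in function, rose for 7 of 24 genes (29.2%) with 0 falls and a median of 0.70. In the fit lacking replicate 1 of 3.5 mM 12 rose, at a median of 0.92, while leaving out any other of the 6 arrays left 1 rise. Cth, which makes cysteine from cystathionine, had 2.82, 4.45 and 4.40 at 3.5 mM against 0.84, 1.45 and 1.49 at 0.14 mM, a 6.19-fold rise (log2 2.63, SE 0.8, adjusted p = 0.0388). The call for Cth was lost when any 1 of 5 of the 6 arrays was left out. Mthfd2, a mitochondrial folate enzyme, rose 4.16-fold (adjusted p = 0.00325), and the pro-apoptotic factor Ddit3 2.58-fold (adjusted p = 0.0304). Atf4 itself had 5.75, 6.51 and 6.62 at 3.5 mM against 5.20, 5.22 and 5.31 at 0.14 mM (2.07-fold, adjusted p = 0.0256). Ddit3 and Atf4 lost their calls, too, when any 1 of 5 arrays was left out, and 0 of the named rises of this list were called with spike level as a term. The rises were not clear of the untreated arrays. The mean of the ATF4 list was 3.43, 4.29 and 4.53 at 3.5 mM and 3.18, 3.40 and 3.40 at 0.14 mM, while the 4 arrays at 0 mM gave 3.22, 4.23, 3.32 and 4.17, so that 2 of them lay among the high-dose arrays. Accordingly, 0 of the 7 genes had all 3.5 mM arrays above every 0 and 0.14 mM array.

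**Figure D4:**
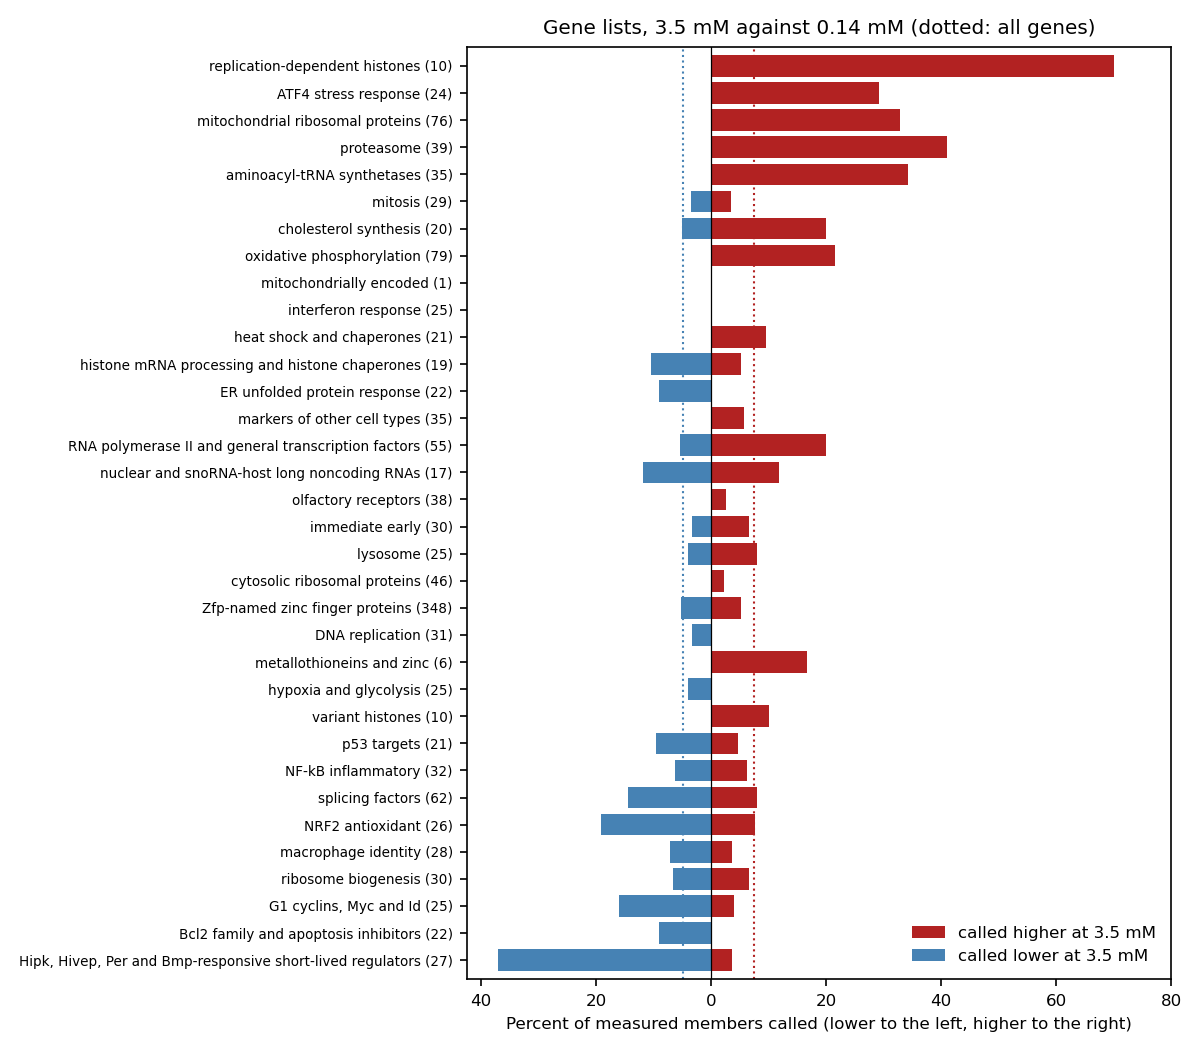
Percent of the measured genes of each list (rows, number in brackets) called higher at 3.5 mM (bars to the right) or lower (bars to the left), ordered by the median log2 difference, with dotted lines at the shares of all genes, 7.41% and 4.8%. Replication-dependent histones have the longest bar to the right (70%), and the list of Hipk, Hivep and Per regulators the longest to the left (37%). The lists were chosen with earlier results of these data known.

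The largest fall was that of Hipk2, a nuclear kinase that acts on p53 and transcription corepressors. It had 0.46, -0.72 and -0.04 at 3.5 mM, against 3.47, 3.72 and 3.66 at 0.14 mM and 2.95 to 3.62 at 0 mM. The fall was 13.1-fold (log2 -3.71, SE 0.27, adjusted p = 7.99e-08), and 5 of its 8 probe sets fell. In the list of short-lived regulators of the Hipk, Hivep, Per and Bmp-responsive kinds 10 of 27 genes fell (37%, against 4.8% of all genes) and 1 rose, with a median of -0.45. This list joins several gene families and was drawn up with earlier results of these data known, so its share is not independent of them. Leaving out 1 array gave 8 to 10 falls, against 514 to 908 over all 18193 genes. With spike level as a term 5 fell, against 454 over all genes. Hivep3, a zinc finger protein of enhancer kB sites, fell 5.64-fold, with 0.83, 0.32 and 0.38 at 3.5 mM against 2.81, 3.18 and 3.03 at 0.14 mM. Of the other 4 probe sets of Hivep3 1 was called higher (log2 difference 0.43, adjusted p = 0.0399) and 3 were not called. Skil, a corepressor of SMAD signalling, fell 3.34-fold, with 1.66, 1.58 and 1.68 at 3.5 mM against 3.14, 3.50 and 3.51 at 0.14 mM (adjusted p = 9.48e-05), although its probe set of largest variance gave a log2 difference of 0.14. Hipk1, Hipk3 and Bcl6 fell too, at log2 differences of -1.20, -1.25 and -1.45. The single rise was Hexim1, the inhibitor of the elongation kinase P-TEFb, at a log2 difference of 1.44 (adjusted p = 0.00263). Its probe set 1419359_at stood at 4.13, 3.77 and 3.98 at 3.5 mM against 0.19, 0.74 and 0.52 at 0.14 mM (adjusted p = 1.71e-07). The list mean was 1.57, 1.56 and 1.69 at 3.5 mM, below the 2.09 to 2.24 at 0.14 mM and the 2.06 to 2.60 at 0 mM.

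The nuclear long noncoding RNAs Neat1 and Kcnq1ot1 were among the large falls. Neat1, the scaffold of paraspeckles, had 2.33, 2.97 and 3.03 at 3.5 mM against 5.87, 5.94 and 5.85 at 0.14 mM (8.64-fold, log2 -3.11, SE 0.473, adjusted p = 0.000332). All 0 mM arrays lay above the 3.5 mM arrays but over a wide range, 3.97 to 5.71, and the other Neat1 probe set did not pass the test. Kcnq1ot1, the antisense RNA of an imprinted domain, fell 4.44-fold, with 1.08, 0.61 and 0.38 at 3.5 mM against 2.79, 2.88 and 2.84 at 0.14 mM (adjusted p = 1.07e-06). Of the 6 Kcnq1ot1 probe sets 2 were called lower and 1 higher (log2 difference 0.44, adjusted p = 0.00373). Over the whole list of nuclear and snoRNA-host noncoding RNAs 2 of 17 fell (11.8%, against 4.8% of all genes). As many rose (11.8%, against 7.41% of all genes), and the median log2 difference of the list was 0.14. Sfpq, a protein partner of Neat1 in paraspeckles, fell 4.48-fold with all arrays (adjusted p = 0.0104), but its arrays were split: 5.06, 2.44 and 2.29 at 3.5 mM against 5.29, 5.52 and 5.46 at 0.14 mM. Replicate 1 lay close to the low dose, and without it the difference was -3.06 on the log2 scale. The call was lost without 1 or another of 2 arrays.

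Several genes for scaffold proteins and chromatin factors also fell. Plec, the cytoskeletal linker plectin, had 2.94, 3.09 and 3.42 at 3.5 mM against 5.61, 5.60 and 5.64 at 0.14 mM (5.54-fold, adjusted p = 1.74e-06), and 2 of its 3 probe sets fell. Ahnak, a giant scaffold protein, fell 4.5-fold (adjusted p = 0.00531), although its probe set of largest variance gave a log2 difference of 0.08. The chromatin remodelling subunit Arid1a fell 5.1-fold on its brightest probe set, and both of its probe sets were called. The histone H3 methyltransferase Kmt2d fell 4.59-fold (adjusted p = 0.000996), Dido1 fell 4.39-fold (adjusted p = 0.000412) and the ubiquitin ligase Cbl fell 4.41-fold (adjusted p = 2.48e-07). Pcdh7, an adhesion protein, fell 5.84-fold, with 2.85, 1.33 and 1.30 at 3.5 mM against 4.25, 4.45 and 4.41 at 0.14 mM, and its 0 mM arrays ran from 2.15 to 3.74. Among those untreated arrays 2 lay within the range of the high dose. Of the falls named in this and the previous paragraphs, Hipk2, Hivep3, Skil, Neat1, Kcnq1ot1, Plec, Cbl and Dido1 were also called with spike level as a term, while Ahnak, Arid1a, Kmt2d, Pcdh7 and Sfpq were not.

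Genes of the transcription machinery included falls of Ccnt2 and Polr2a and a larger number of rises. Ccnt2, a cyclin of P-TEFb, fell 3.42-fold, with 0.46, 0.34 and 0.44 at 3.5 mM against 2.13, 2.29 and 2.13 at 0.14 mM (adjusted p = 1.87e-06), all 3 below the 22 other arrays. Polr2a, the largest subunit of RNA polymerase II, fell at a log2 difference of -1.52 (adjusted p = 0.00335). Smaller subunits rose, among them Polr2h, with 4.74, 4.80 and 4.91 at 3.5 mM against 3.83, 3.97 and 4.04 at 0.14 mM (1.82-fold, adjusted p = 8.56e-05), and Polr2c (1.62-fold, adjusted p = 0.00016). In all, 11 of 55 genes of polymerase II and the general factors rose (20%, against 7.41% of all genes) and 3 fell (5.45%, near the 4.8% of all genes). The rises were 5 without replicate 1 of 0.14 mM (621 over all 18193 genes) and 2 with spike level as a term (167 over all genes). Of 62 splicing factors 5 were higher (8.06%, near the share of all genes) and 9 lower (14.5%). The counts were 2 higher and 15 lower without replicate 1 of 3.5 mM, and leaving out any other array gave 5 to 7 falls. With all arrays the falls included Srsf6, Srsf4, Hnrnpr, Hnrnpu and Hnrnph1, and the rises the small core proteins Snrpe, Snrpb2, Sf3b5 and Sf3b6. Of the Zfp-named zinc finger genes 18 of 348 rose and 18 fell, shares of 5.17% each, and leaving out 1 array gave 8 to 18 rises and 13 to 19 falls.

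Some cell cycle entry genes fell. Cdk6, the kinase partner of D-type cyclins, had 2.70, 2.83 and 2.53 at 3.5 mM against 4.43, 4.53 and 4.51 at 0.14 mM (3.49-fold, adjusted p = 3.57e-06), all below the 22 other arrays. E2f3, a transcription factor of the G1 to S transition, fell 2.34-fold (adjusted p = 0.00183), and cyclin gene Ccnd1 2.07-fold (adjusted p = 0.0152), a call lost when any 1 of 4 arrays was left out. With Id1 they made 4 falls among 25 genes of the list of G1 cyclins, Myc and Id genes (16%, against 4.8% of all genes). The 1 rise was Id2 (4%, against 7.41% of all genes). When any 1 of 4 arrays was left out 2 falls were left, against 514 to 663 over all 18193 genes. The apoptosis inhibitors Xiap and Birc6 fell 2.32-fold and 2.19-fold (adjusted p = 0.00395 and 0.00154), although for Xiap the probe set of largest variance gave a log2 difference of 0.43 that missed the threshold. They were the 2 falls among 22 genes of the Bcl2 family and apoptosis inhibitors (9.09%, against 4.8% of all genes), of which 0 rose.

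Of 26 NRF2 targets 5 fell (19.2%, against 4.8% of all genes) and 2 rose (7.69%, against 7.41%). The list mean was 3.31, 3.18 and 3.21 at 3.5 mM, against 3.48 to 3.56 at 0.14 mM and 2.99 to 3.22 at 0 mM. The high dose thus lay below the low dose as a list but not below the untreated arrays. Of the 5 falls, 2 had all 3.5 mM arrays below every 0 and 0.14 mM array. Gclm and Gclc encode the subunits of the enzyme that begins glutathione synthesis. Gclm had 3.58, 2.65 and 2.86 at 3.5 mM against 4.91, 5.11 and 5.02 at 0.14 mM and 2.81 to 3.79 at 0 mM, a 3.95-fold fall against the low dose (adjusted p = 0.00196), so the high-dose and untreated arrays overlapped. Gclc fell 2.47-fold (adjusted p = 0.014), a call lost without 1 or another of 3 arrays, with all 3.5 mM arrays below those at 0 mM. Txnrd1, the cytosolic thioredoxin reductase, fell 2.55-fold, with 4.80, 4.02 and 4.14 at 3.5 mM against 5.61, 5.71 and 5.71 at 0.14 mM (adjusted p = 0.000547), below all 22 other arrays. The rises were Gss, which completes glutathione synthesis, and Taldo1, a pentose phosphate enzyme. Leaving out 1 array at a time gave 2 to 6 falls in this list, against 514 to 908 over all 18193 genes. With spike level as a term 0 fell, against 454 over all genes. Hmox1, the classical heme oxygenase target, had 3.56, 3.83 and 4.07 at 3.5 mM against 4.44, 4.50 and 4.51 at 0.14 mM and missed the threshold (adjusted p = 0.0549).

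Few inflammatory genes were called between the extreme doses. Of 32 NF-kB inflammatory genes 2 rose and 2 fell (6.25% each), with 0 or 1 rises and 2 falls when any 1 array was left out, and the list mean was 1.88, 1.63 and 1.71 at 3.5 mM against 1.80, 1.93 and 1.89 at 0.14 mM. Nfkbia, the inhibitor that NF-kB itself induces, fell 2.08-fold, with 5.70, 5.88 and 5.47 at 3.5 mM against 6.69, 6.83 and 6.69 at 0.14 mM (adjusted p = 0.00135). Ptgs2, which encodes the inducible cyclooxygenase, had 3.27, 3.45 and 3.08 at 3.5 mM and 3.23, 3.60 and 3.44 at 0.14 mM (adjusted p = 0.932). Of 25 interferon response genes 0 were called by limma at the adjusted threshold, and 1 had an unadjusted p under 0.05. Their list mean was 2.56, 2.21 and 2.42 at 3.5 mM, against 1.95, 2.20 and 2.16 at 0.14 mM and 1.92 to 3.43 at 0 mM. The spread in the test is pooled over doses such as 0.7 mM, where this mean was 2.60, 1.63 and 4.65. A low count of calls thus does not show that the 2 doses were alike. Among 28 macrophage identity genes 1 rose and 2 fell (3.57% and 7.14%). At an unadjusted p under 0.05, 1 rose (3.57%, against 17.9% of all genes) and 6 fell (21.4%, against 9.28%). Csf1r, the receptor for the macrophage growth factor, had 7.52, 7.39 and 7.29 at 3.5 mM against 7.72, 7.89 and 7.83 at 0.14 mM (adjusted p = 0.109). Cholesterol synthesis genes rose for 4 of 20 and fell for 1, immediate early genes rose for 2 of 30 and fell for 1, and ribosome biogenesis genes rose for 2 of 30 and fell for 2. Once replicate 1 of 3.5 mM was left out, ribosome biogenesis genes had 1 rise and 9 falls, and cholesterol synthesis genes 2 rises and 2 falls. The mean of the ribosome biogenesis list was 4.52 on that array, against 3.69 and 3.84 on the other two of its dose. Lysosome genes rose for 2 of 25 and fell for 1, p53 targets rose for 1 of 21 and fell for 2, and of 22 genes of the unfolded protein response 2 fell and 0 rose (3 at an unadjusted p under 0.05).

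The same 3.5 mM arrays were set against 2.1 and 2.8 mM, the doses below them, and the 3 comparisons share those arrays. Against 2.1 mM 3580 of 18193 genes were called (19.7%), 1991 of them higher (10.9%) and 1589 lower (8.73%). Against 2.8 mM 2571 were called (14.1%), 1602 of them higher (8.81%) and 969 lower (5.33%). H3f3b and H3c7 were higher at 3.5 mM than at both doses, at log2 differences of 4.65 and 4.10 against 2.1 mM and 3.39 and 3.65 against 2.8 mM. The replication-dependent histone list mean was 0.73 at 2.1 mM and 0.80 at 2.8 mM, against which the 3.5 mM arrays again lay at 1.82 to 1.93. Replicate 1 of 2.8 mM stood apart from the other two of its dose in several of these values. For Hspa1b the difference from 2.8 mM was 0.22 (adjusted p = 0.898), and for Sgk1 0.26 (adjusted p = 0.83). Hipk2 was lower at 3.5 mM by -3.43 and -2.14 on the log2 scale (adjusted p = 1.81e-07 and 6.14e-05). Neat1 differed from 2.8 mM by -0.27 (adjusted p = 0.826), but the 2.8 mM arrays stood at 1.73, 3.78 and 3.62, below and above the 3.5 mM arrays. Without replicate 1 of 2.8 mM the difference of Neat1 was -0.92 (adjusted p = 0.176), that of Hspa1b 0.64 (adjusted p = 0.651) and that of Sgk1 0.59 (adjusted p = 0.561).

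Lists with few calls between the extreme doses had many against the middle ones. In the NRF2 list 16 of 26 genes were lower at 3.5 than at 2.1 mM (61.5%) and 8 lower than at 2.8 mM (30.8%). Gclm was lower by -3.97 against 2.1 mM, Hmox1 by -3.75 and Srxn1, which restores oxidised peroxiredoxins, by -4.46. In the NF-kB list 16 of 32 genes were lower at 3.5 than at 2.1 mM (50%) and 6 lower than at 2.8 mM (18.8%), with Ptgs2 lower by -4.08 against 2.1 mM (adjusted p = 0.00172). Mitosis genes ran the other way, with 28 of 29 higher than at 2.1 mM (96.6%) and 22 higher than at 2.8 mM (75.9%). The mean of the mitosis list was 3.81 at 0.14 mM, 2.17 at 2.1 mM and 4.11 at 3.5 mM, while the 2.8 mM arrays were split at 3.75, 2.16 and 2.12. The NF-kB list was split in the same way at 2.8 mM, with 1.93, 3.49 and 3.39. Without replicate 1 of 2.8 mM, 27 mitosis genes were higher, 12 NF-kB genes lower and 9 NRF2 genes lower at 3.5 than at 2.8 mM.

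**Figure D5:**
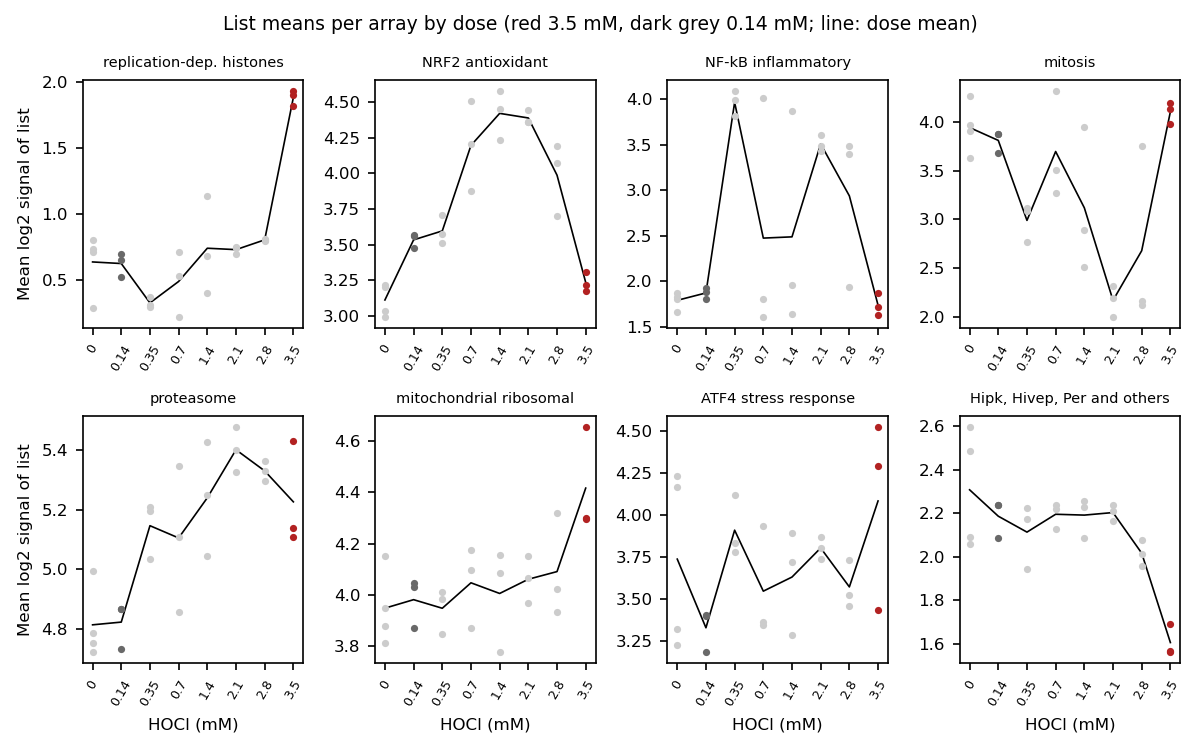
Mean log2 signal of selected gene lists (vertical) on each array at each HOCl dose in mM (horizontal, doses evenly spaced), with a line through the dose means. The histone list is highest at 3.5 mM, while the NRF2, NF-kB and mitosis lists lie nearer their 0.14 mM values at 3.5 mM than at 2.1 mM.

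Probe sets of a gene did not always move together. Among 9010 genes with more than 1 probe set, 2417 had at least 1 called, and 79 had probe sets called in both directions. The widest such span was that of Tsc22d1, a leucine zipper factor, with 4 probe sets higher and 2 lower and log2 differences from -1.23 to 2.28. In another 660 genes the brightest probe set was not called while a different one was higher, and in 423 a different one was lower. Hspa8, the constitutive HSP70, is one of these. Its probe set 1431182_at had 3.87, 4.47 and 4.46 at 3.5 mM against 1.29, 1.72 and 1.66 at 0.14 mM (log2 difference 2.71, adjusted p = 3.96e-05), while the remaining 3 did not pass the test. Rps24, a cytosolic ribosomal protein, showed the reverse at probe set 1455195_at, with -0.72, -0.76 and -0.39 at 3.5 mM against 1.45, 2.04 and 1.99 at 0.14 mM (log2 difference -2.45, adjusted p = 3.94e-05), and its remaining 5 probe sets were not called. These genes were chosen after their values were seen.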

How the data were processed

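Total RNA of each culture was turned into labelled cRNA and hybridised to 1 array, per the labels' protocols. Each probe set has 1 deposited value an array on a log2 scale, and the submitters' processing notes name RMA, with no version. The base of the logarithm is not stated and was inferred to be 2 from the span of the values, so every fold rests on it. Each array has a median of 0. The array images were not used here.

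Of 45101 probe sets, 64 controls were set aside and the other 45037 were all tested, dim ones included. The brightest single-symbol probe set in GEO's platform annotation stood for each gene (34945 probe sets, 18193 genes), while 932 probe sets carry several symbols and 9160 none. Dose means were estimated over all 25 arrays in limma 3.58.1 under R 4.3.3 (17 residual and 2.99 prior degrees of freedom), with two-sided moderated tests and Benjamini-Hochberg adjustment over the 45037 probe sets. An adjusted p under 0.05 was called. P-values rest on the spread between arrays pooled over all doses, so their precision depends on how many arrays there are. The design text states 3 replicates per dose, while 4 arrays are at 0 mM. Control probe sets were compared by exact permutation tests of 3 against 3 arrays.

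Named genes were the 15 largest rises and falls without overlap between the groups, the 4 members of each of 34 lists with the lowest p (8 for the replication-dependent histones), the 3 largest each way against 2.1 and 2.8 mM, and a set of stress and inflammation genes. Other list members named in the text were chosen after their values were seen. The members and lists were chosen with earlier results of these data known. Replicate numbers did not pair the arrays of the 2 doses (correlations of residuals -0.206, -0.303 and 0.096). Promoters came from RefSeq tables of GRCm38.p6, in which 11791 measured genes have 1 entry, and H3c7 and Neat1 have none. The fits were first tested on simulated data. Motif searches, figures and counts were made in Python 3.11.15 with pandas 2.3.3 and matplotlib 3.10.9.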

Additional observations from a re-analysis of the deposited data

Results flagged for a closer look

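The poly-A control transcripts were measured outside the comparison. Their 5' ends were higher by 1.372 on the log2 scale at 3.5 mM than at 0.14 mM, with all arrays of each dose on its own side.

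For each of 5 measures 1 of the 4 arrays at 0 mM lay far from the other 3, by the gap to its nearest neighbour as a share of the whole range. The share was 0.9399 for the mean of the interferon response list, 0.853 for the 3' ends of the poly-A controls and 0.8517 for the 3' to 5' difference of the Gapdh control probe sets. It was 0.9175 for the middle and 0.9747 for the 5' Actb control probe set. The array was replicate 1 for the Gapdh difference and replicate 3 for the other measures. In all, 51 groups of values were examined in this way, and chance flags about 1 in 20 of them.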

How the results depend on the processing

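With limma's array weights, which did not converge, 10743 probe sets differed between 3.5 and 0.14 mM (5854 higher, 4889 lower), and with gene-by-gene weights, added after seeing the data, 10448 (5512 and 4936). With spike level as a term there were 1734 (313 and 1421). The replicate numbers share no source that the labels name. With them as a block the arrays of the 2 doses gave 3365 calls, 1471 of them higher, and 25 of 117 named calls were lost, while the block over all arrays gave 4358. Leaving out 1 array at a time gave 2711 to 4293 calls, 1207 to 2175 of them higher and 1248 to 2118 lower, 1023 to 1597 of at least 2-fold, and 5 or 6 of the histone list. The 2 doses alone without replicate 1 of 3.5 mM, chosen after seeing the data, gave 8313 calls, 4349 lower and 2078 of at least 2-fold. With 1 probe set a gene 2302 were called (1396 higher, 906 lower, 553 of at least 2-fold). Counting all histone probe sets gave 14.

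Against 2.1 mM the count was 13320 with array weights, 14171 with gene-by-gene weights, 14626 with the 2 doses alone without replicate 1 of 3.5 mM, and 4990 to 8045 leaving out 1 array. Against 2.8 mM it was 2043 with the 2 doses alone, 10739 and 11012 with the weights, 541 with the replicate block over 2 doses, and 2123 to 6637 leaving out 1 array.

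Of 117 calls for named genes 84 were kept without every single array of the 2 doses, and 75 were lost with spike level as a term. On the probe set of largest variance 8 called genes changed sign: Ahnak (0.0841), Sel1l (0.4097), Btg2 (-0.7002), Xiap (0.4306), Hmgcs1 (0.7243), Fdps (-0.6597), Pes1 (-0.2361) and Skil (0.1395). Slbp also did (1.8052), and Il1rn did so with the 2 doses alone without replicate 1 of 3.5 mM (-0.6314). Other causes of these moves were not tested.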
